A study of Mus musculus with 8 samples.

Results

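DNA damage response and repair genes were measured after 4 days of T lineage culture, the only time point, in cells grown from progenitors with and without Tcf1. The set holds 43 genes chosen by their known roles, from the kinases that sense breaks to the enzymes of each repair pathway. Probesets annotated to exactly 1 gene covered 41 of them, with 45 of the 21789 probesets tested (19938 genes). Trp53 and Xrcc2 were not analysed here. Expression was measured on 8 arrays of mouse bone marrow cells grown on OP9-DL4, a stromal line whose Notch ligand drives progenitors into the T lineage. The cultures were seeded with lymphoid primed multipotent progenitors and given Flt3L at 5 ng/ml and IL1, as labelled, at 1 ng/ml. T lineage cells (Thy1+CD25+) came from Tcf7+/+ cultures on 2 arrays. Lineage-negative (LN) cells, which lacked Mac1, Gr1, Thy1 and CD25, came from 3 Tcf7-/- mice and from 3 Tcf7+/+ mice. These groups are called wildtype T, deficient LN and wildtype LN cells. Tcf7 encodes Tcf1, which activates T lineage genes downstream of Notch.

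The labels state that progenitors without Tcf1 gave no Thy1+CD25+ cells, so there is no deficient T group, and they do not say which mice gave the wildtype T cells. Mice of both genotypes are labelled as backcrossed for about 6 generations and kept on that mixed background. Genotypes are as labelled, since the Tcf7 transcript was not analysed here. Each array carries RNA of a sorted culture, in which fewer cells of a type and less RNA per cell cannot be told apart.

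The DNA damage response starts with the kinases Atm and Atr, which are activated by double-strand breaks and by stalled replication forks and signal to Chek2, Chek1 and p53. Breaks are mended by homologous recombination, which copies the sister chromatid, or by end joining, while damaged bases, bulky lesions, mispairs and interstrand crosslinks each have a pathway of their own. T cell progenitors are known both to divide fast and to cut their antigen receptor genes on purpose, and many replication-linked repair genes are known targets of the E2F factors, which act at the start of S phase.

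Promoter windows of the members whose level differed between wildtype T and wildtype LN cells are printed first, to show which of them carry an E2F-type motif. The windows are from RefSeq on GRCm38.p6 and run from 250 bases before to 50 bases after a start of the gene, 5′ to 3′ on the gene's own strand. For Atm, Xrcc3 and Fanca this start is not the outermost one of the gene. Capitals mark TTCCCGC or TTGGCGC, searched on both strands, so that a match on the opposite strand reads GCGGGAA or GCGCCAA. Rad51c has 2 windows, of which the one with motifs is shown. No window is shown for Wrn.
Chek1, chr9:36726609-36726908, minus strand: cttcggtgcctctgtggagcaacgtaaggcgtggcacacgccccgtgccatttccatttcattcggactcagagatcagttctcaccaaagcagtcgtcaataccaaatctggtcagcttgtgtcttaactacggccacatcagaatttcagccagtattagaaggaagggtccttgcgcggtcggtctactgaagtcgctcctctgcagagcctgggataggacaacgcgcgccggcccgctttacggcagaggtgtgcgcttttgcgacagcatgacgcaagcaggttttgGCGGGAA
Atm, chr9:53536622-53536921, minus strand: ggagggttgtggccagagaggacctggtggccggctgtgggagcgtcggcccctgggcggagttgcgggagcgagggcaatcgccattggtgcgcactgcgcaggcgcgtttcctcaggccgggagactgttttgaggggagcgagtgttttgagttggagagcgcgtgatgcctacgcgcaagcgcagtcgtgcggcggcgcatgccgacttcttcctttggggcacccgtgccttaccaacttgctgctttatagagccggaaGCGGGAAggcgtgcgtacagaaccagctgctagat
Rad51c, chr11:87404905-87405204, minus strand: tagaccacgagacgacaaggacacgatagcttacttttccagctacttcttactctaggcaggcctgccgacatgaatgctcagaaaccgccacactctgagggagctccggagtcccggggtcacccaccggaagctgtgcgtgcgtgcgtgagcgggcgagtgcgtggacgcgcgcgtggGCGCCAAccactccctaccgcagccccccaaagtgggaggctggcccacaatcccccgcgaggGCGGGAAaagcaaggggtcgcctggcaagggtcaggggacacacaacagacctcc
Xrcc3, chr12:111813830-111814129, minus strand: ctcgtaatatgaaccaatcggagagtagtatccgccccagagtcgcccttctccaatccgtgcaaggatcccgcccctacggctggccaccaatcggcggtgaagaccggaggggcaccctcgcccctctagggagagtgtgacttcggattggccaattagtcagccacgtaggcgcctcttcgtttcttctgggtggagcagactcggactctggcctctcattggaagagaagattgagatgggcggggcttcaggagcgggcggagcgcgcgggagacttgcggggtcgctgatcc
Fanca, chr8:123318527-123318826, minus strand: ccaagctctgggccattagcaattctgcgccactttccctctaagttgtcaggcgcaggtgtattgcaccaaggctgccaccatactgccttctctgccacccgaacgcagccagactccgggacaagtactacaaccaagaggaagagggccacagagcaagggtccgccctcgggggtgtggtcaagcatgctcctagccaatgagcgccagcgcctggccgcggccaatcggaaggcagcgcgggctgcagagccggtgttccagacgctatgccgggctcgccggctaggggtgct
Chek1 holds TTCCCGC on the opposite strand at base 294 of 300, and Atm holds it on the opposite strand at base 266, both downstream of the start that the window uses. Rad51c holds TTGGCGC at base 183 and TTCCCGC at base 246, both on the opposite strand. Neither motif stands in the Xrcc3 and Fanca windows.

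Of the measured members, 35 had a window, with 38 windows in all. A TTCCCGC or TTGGCGC stood in 16 of these, or 42.1%, beside 9.28% of the 19177 windows of tested genes and 6.81% of all 32851 windows. In replication and S phase genes 10 of 17 windows held one, or 58.8%. CCAAT, whose opposite-strand form can share letters with TTGGCGC, was in 19 of the 38 member windows and in 37.4% of those of tested genes. TTTGAA, the core of a cell cycle element of mitotic genes, was in 5.26% of the members' windows and in 14.8% of those of tested genes. The median GC content was 60.0% in members' windows and 57.3% in those of tested genes. A match is one of letters, and neither binding nor the start used in these cells was measured.

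Levels below are log2 intensities as deposited, on which 1 unit is a doubling, and differences carry the standard error (SE) of a limma fit to all 8 arrays. A gene was called where p, adjusted by Benjamini-Hochberg over the 21789 probesets, was under 0.05. A gene with several probesets (Bard1, Nbn and Tdp1) is given by its brightest, and levels are compared only within a probeset. T lineage marker transcripts matched the Thy1 and CD25 labels of the sort. For the Mac1 and Gr1 labels no single transcript is given here. All 9 T lineage markers were called higher in wildtype T than in wildtype LN cells, Thy1 and Il2ra of the gate among them. The mean level of that list was 10.05 and 9.36 on wildtype T arrays 1 and 2. It was 6.68 to 6.79 on the deficient LN arrays and 6.73 to 6.83 on the wildtype LN arrays. Between the LN groups 1 of the 9 was called, lower in deficient LN cells (limma adjusted p = 0.0283). That call was lost after median centring of the arrays and after a second quantile normalization. The differences of the list ran from -1.02 to 0.27 there, with 7 positive and 2 negative. The LN cells of both genotypes held transcripts of other lineages. The mean of the 9 dendritic cell markers was 6.16 and 6.28 in wildtype T, 9.50 to 9.79 in deficient LN and 9.65 to 9.94 in wildtype LN cells, with 8 of 9 called lower in wildtype T than in wildtype LN cells. The mean of the 11 granulocyte and monocyte markers was 6.89 and 7.16 in wildtype T, 9.06 to 9.10 in deficient LN and 8.98 to 9.61 in wildtype LN cells, with 8 of 11 called lower. Of the 5 progenitor markers measured, 3 were called lower and 1 higher, and their mean was 8.08 and 8.22 in wildtype T, 9.32 to 9.51 in deficient LN and 9.22 to 9.37 in wildtype LN cells. Of 5 NK cell markers 2 were called lower, and of 5 B lineage markers 1. The part of these lists in the members' differences was not tested. Of 10 stromal markers 0 were called against wildtype LN and 2, both lower, against deficient LN cells, and of 2 erythroid markers 0. Between the LN groups 0 stromal markers were called (smallest limma adjusted p = 0.0998). Arrays did not overlap for 3 of the 10, higher in deficient LN cells, and for 3 progenitor markers that were higher and 1 that was lower. Over all probesets 3.93% were higher and 6.01% lower in that way. The part of these markers in the genotype differences was not tested.

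Between wildtype T and wildtype LN cells, 6 of the 41 measured members were called. Chek1, Atm, Xrcc3 and Fanca rose and Wrn and Rad51c fell, by 1.22-fold to 1.45-fold. The members called make up 14.6%, beside 18.0% of all tested probesets (7.66% higher and 10.4% lower), so calls were no more common among the repair genes than over the whole table. The number called was lower without either wildtype T array, and was 3 and 2 without wildtype LN arrays 2 and 3. The share of all probesets called with an array left out is not given here, so these counts are not set against the whole table. The median difference was 0.06 over the members and 0.05 over all tested genes, and the median size of a difference was 0.13 in both. The arrays of both groups did not overlap for 18 of the 41 members, 11 higher and 7 lower, beside 47.8% of all probesets (28.0% higher and 19.8% lower). An unadjusted p under 0.05 was reached by 11 members, beside 29.4% of all probesets. No member differed by 1.5-fold or more, a size that 1461 of all tested genes passed.

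**Figure D1:**
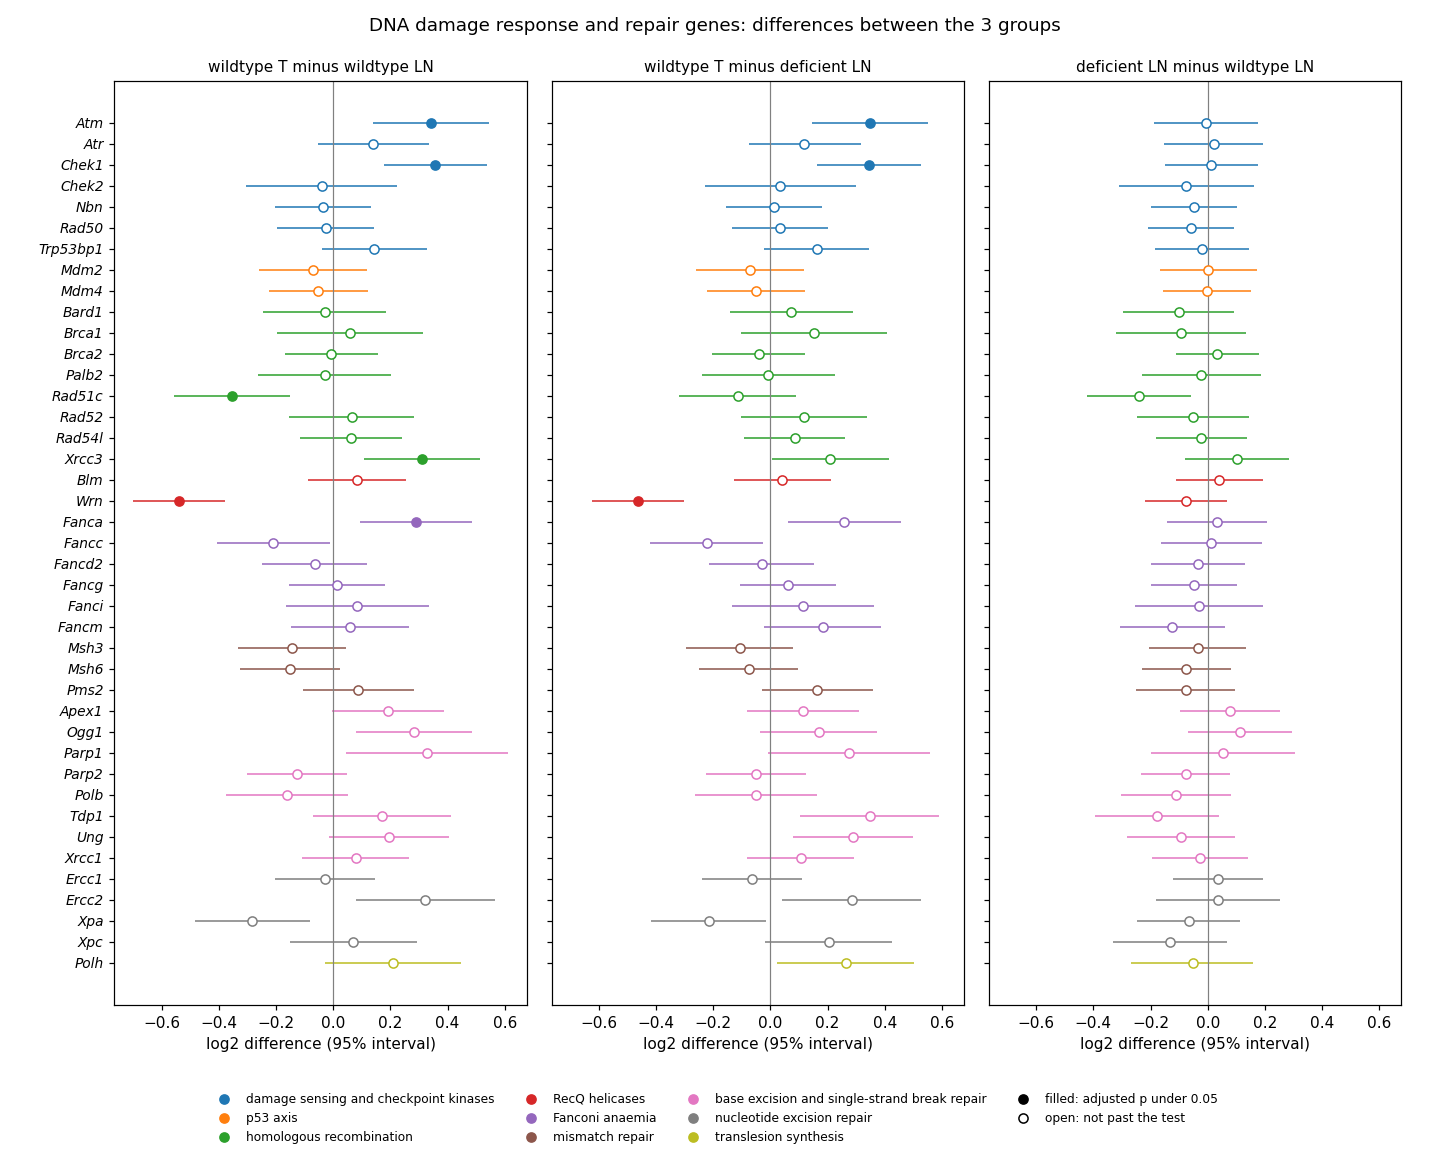
Log2 differences of the 41 measured members with 95% limma intervals, grouped by role, for wildtype T minus wildtype LN (left), wildtype T minus deficient LN (middle) and deficient LN minus wildtype LN (right). Filled points are called. In the left panel 4 members are called higher and 2 lower, and in the right panel all points lie between -0.24 and 0.11 and none is called.

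Among the 7 damage sensors and checkpoint kinases, Chek1 and Atm rose and 5 were not called. Chek1, the kinase that Atr activates when replication stalls, stood at 10.32 and 10.27 in wildtype T, at 9.98, 9.85 and 10.02 in deficient LN and at 10.01, 9.94 and 9.87 in wildtype LN cells. Both wildtype T arrays lay above all 6 LN arrays, and the LN groups overlapped. Chek1 was 0.36 higher in wildtype T than in wildtype LN cells (SE 0.08, 1.28-fold, limma adjusted p = 0.0113), and without wildtype T array 1 the difference was 0.33 (adjusted p = 0.0785). Against deficient LN cells it was 0.34 higher (SE 0.08, limma adjusted p = 0.0170), with adjusted p = 0.106 without wildtype T array 1 and 0.061 without array 2.

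Atm, the kinase activated by double-strand breaks, stood at 9.67 and 9.55 in wildtype T, at 9.29, 9.15 and 9.35 in deficient LN and at 9.38, 9.22 and 9.20 in wildtype LN cells. The wildtype T arrays again lay above all LN arrays. The rise over wildtype LN cells was 0.34 (SE 0.09, 1.27-fold, limma adjusted p = 0.0249), and over deficient LN cells 0.35 (SE 0.09, limma adjusted p = 0.0283). The first call was lost without wildtype LN array 2 (adjusted p = 0.0770) or 3 (0.0860) and without wildtype T array 1, where the difference was 0.28 (0.178). The second was lost without deficient LN array 1 (0.0581) or 2 (0.0684) and without wildtype T array 1 (0.190) or 2 (0.0556).

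The other 5 sensors lay closer together. Atr and Trp53bp1, a chromatin-bound mediator that favours end joining, were each 0.14 above wildtype LN cells (limma adjusted p = 0.335 and 0.294). Rad50 and Nbn, subunits of the complex that first binds broken ends, differed by -0.03 and -0.04. A second, dimmer Nbn probeset gave 0.30 (limma adjusted p = 0.0794). Mre11a, their partner in that complex, is not a member but was measured among the other repair genes. It was called 0.32 higher in wildtype T than in wildtype LN cells (limma adjusted p = 0.0351), and 0.32 higher than in deficient LN cells (0.042). How these calls held under the alternatives is not given here. Chek2, the kinase downstream of Atm, stood at 8.58 and 9.01 in wildtype T cells, a wider gap than on any LN array of either genotype, which spanned 8.67 to 8.93.

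Mdm2 and Mdm4, the inhibitors of p53, did not pass the test in any comparison. Mdm2, itself a known p53 target, stood at 9.56 and 9.38 in wildtype T, at 9.63, 9.49 and 9.51 in deficient LN and at 9.59, 9.48 and 9.55 in wildtype LN cells. All 3 groups overlapped, and wildtype T minus wildtype LN was -0.07 (limma adjusted p = 0.648). Mdm4 differed by -0.05.

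The 8 measured homologous recombination genes had 1 call in each direction, and the called genes, Xrcc3 and Rad51c, are known to work as partners in one complex. Xrcc3 stood at 7.81 and 7.78 in wildtype T, at 7.42, 7.72 and 7.62 in deficient LN and at 7.48, 7.50 and 7.48 in wildtype LN cells. The wildtype T arrays lay above the rest, and the deficient LN arrays were spread around the wildtype LN arrays. Xrcc3 was 0.31 higher in wildtype T than in wildtype LN cells (SE 0.09, 1.24-fold, limma adjusted p = 0.0400), and 0.21 above deficient LN cells (adjusted p = 0.178). The call did not hold without deficient LN array 3, any wildtype LN array or either wildtype T array (adjusted p from 0.0568 to 0.172).

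Rad51c stood at 7.35 and 7.45 in wildtype T, at 7.46, 7.52 and 7.57 in deficient LN and at 7.88, 7.61 and 7.77 in wildtype LN cells. The 3 groups did not overlap, with deficient LN between the others. Rad51c fell by 0.35 in wildtype T against wildtype LN cells (SE 0.09, 1.28-fold, limma adjusted p = 0.0217), and the difference from deficient LN cells was -0.11 (adjusted p = 0.488). The call was lost without wildtype LN array 1 (adjusted p = 0.0710) or 3 (0.0630) and without wildtype T array 1 (0.148) or 2 (0.0541).

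Brca1, the scaffold that steers breaks to recombination, stood at 8.42 and 8.50 in wildtype T, at 8.37, 8.10 and 8.46 in deficient LN and at 8.55, 8.38 and 8.28 in wildtype LN cells. The groups overlapped, and wildtype T minus wildtype LN was 0.06 (limma adjusted p = 0.789). Its partners Bard1 and Palb2 each differed by -0.03, Brca2, which acts with Palb2, by -0.01, and Rad54l and Rad52 by 0.06 and 0.07. None of these passed the test, nor did the dimmer Bard1 probesets, at 0.07 and 0.17.

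Wrn had the smallest adjusted p among the members in both comparisons with wildtype T cells. It encodes a RecQ helicase with an exonuclease domain, whose human counterpart is lost in Werner syndrome. It stood at 9.69 and 9.62 in wildtype T, at 10.15, 10.06 and 10.14 in deficient LN and at 10.21, 10.17 and 10.20 in wildtype LN cells. Both wildtype T arrays lay below every LN array, and the deficient LN arrays just below the wildtype LN arrays. Wrn fell by 0.54 against wildtype LN (SE 0.07, 1.45-fold, limma adjusted p = 0.000433) and by 0.46 against deficient LN cells (SE 0.07, limma adjusted p = 0.00148). Both calls held under all 17 alternatives run, with limma adjusted p from 7.41e-05 to 0.00601 and from 0.000342 to 0.0174. Blm, the other RecQ helicase measured, differed from wildtype LN cells by 0.08 (adjusted p = 0.525).

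**Figure D2:**
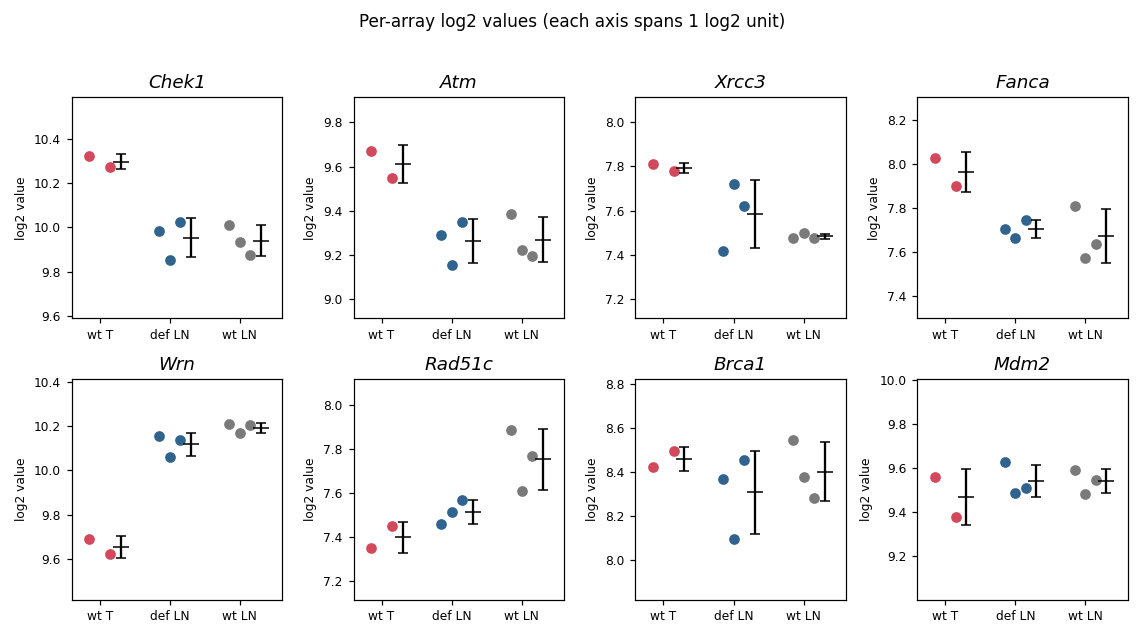
Log2 intensity of 8 members on each array, with group means and SD bars, in the order wildtype T, deficient LN and wildtype LN. Each vertical axis spans 1 log2 unit. Wrn is lower on both wildtype T arrays than on all LN arrays, Chek1 and Atm are higher, and Brca1 and Mdm2 overlap across the groups.

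Of the 6 Fanconi anaemia genes, which act on interstrand crosslinks, Fanca was called. Fanca, a subunit of the core complex, stood at 8.03 and 7.90 in wildtype T, at 7.71, 7.67 and 7.75 in deficient LN and at 7.81, 7.57 and 7.64 in wildtype LN cells. The wildtype T arrays lay above the others, and the LN groups overlapped. The rise over wildtype LN cells was 0.29 (SE 0.09, 1.22-fold, limma adjusted p = 0.0456), the member nearest to the threshold on its inner side, and the call was lost when any 1 array other than wildtype LN array 1 was left out (adjusted p from 0.0540 to 0.273). The difference from deficient LN cells was 0.26 (adjusted p = 0.0850). Fancc was -0.21 (limma adjusted p = 0.147), and Fancd2, Fancg, Fanci and Fancm lay between -0.07 and 0.08.

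None of the 16 genes for base excision, mismatch and nucleotide excision repair and for translesion synthesis was called in any comparison. The 8 base excision and single-strand break repair genes had a median difference of 0.18 between wildtype T and wildtype LN cells, with 6 positive. Parp1, which binds nicked DNA, stood at 10.24 and 10.38 in wildtype T, at 9.85, 10.04 and 10.21 in deficient LN and at 10.09, 9.77 and 10.09 in wildtype LN cells. Its wildtype T arrays were the highest, but the LN arrays spread widely and the difference from wildtype LN cells was 0.33 (limma adjusted p = 0.111). The uracil glycosylase Ung differed by 0.20, Apex1, which cuts at sites without a base, by 0.19, and Parp2 by -0.13.

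Just outside the threshold stood Xpa at -0.28 (limma adjusted p = 0.0563), Ogg1 at 0.28 (0.0592) and Ercc2 at 0.32 (0.0698). Xpa verifies lesions and Ercc2 is a helicase, both in nucleotide excision repair, while Ogg1 removes oxidised guanine. The other excision genes Xpc and Ercc1 differed by 0.07 and -0.03. Of the mismatch repair genes, Msh6 and Msh3, which recognise mispairs and small loops, differed by -0.15 and -0.14 and Pms2, which nicks the strand to be mended, by 0.09. Polh, a polymerase that copies past ultraviolet lesions, differed by 0.21 (limma adjusted p = 0.229).

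Against deficient LN cells, wildtype T cells had 3 members called, or 7.32%, beside 14.1% of all tested probesets (5.98% higher and 8.16% lower). Chek1 and Atm rose and Wrn fell, and 38 members did not pass. The number called was lower without either wildtype T array and was 5 without deficient LN array 3, and the share of all probesets called in these fits is not given here. Arrays did not overlap for 16 members that were higher and 7 that were lower, beside 40.7% of all probesets (23.6% higher and 17.1% lower), and 11 members had an unadjusted p under 0.05, beside 26.2%. The median difference was 0.09 over the members and 0.05 over all tested genes. Tdp1 at 0.35 (limma adjusted p = 0.0608) and Ung at 0.29 (adjusted p = 0.0722) stood closest outside the threshold, and the dimmer Tdp1 probeset was at 0.01 (adjusted p = 0.958). This comparison uses the same wildtype T arrays as the one against wildtype LN cells, so the calls that both make are not independent.

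Loss of Tcf1 gave no called member among the LN cells. All 41 limma adjusted p-values were 0.849 or higher, and 1 member had an unadjusted p under 0.05, where 1 of all tested probesets was called (0.00459%) and 4.92% had an unadjusted p under 0.05. The differences between deficient and wildtype LN cells ran from -0.24 to 0.11, with 13 positive, 28 negative and a median of -0.03, beside -0.01 over all tested genes. Every 95% interval lay within -0.5 to 0.5, as did those of 19251 of the 19938 tested genes. The members' intervals ran from -0.42 at the lowest end to 0.31 at the highest. For each member, a true difference anywhere within its own interval was not excluded with 3 arrays in each group. The arrays of the genotypes did not overlap for Rad51c and Wrn, both lower in deficient LN cells, which is 2 of 41 members beside 9.95% of all probesets (3.93% higher and 6.01% lower).

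The 6 members of smallest p in this comparison came from 4 roles. Rad51c, with the arrays given above, was at -0.24 in deficient minus wildtype LN cells (SE 0.08, 95% interval -0.42 to -0.06, limma adjusted p = 0.849), and at -0.31 to -0.17 under the 17 alternatives. Tdp1, which removes topoisomerase I trapped on DNA, stood at 8.12 and 8.35 in wildtype T, at 7.79, 7.83 and 8.03 in deficient LN and at 8.12, 7.91 and 8.15 in wildtype LN cells. The LN groups overlapped, with a difference of -0.18 (limma adjusted p = 0.9995). The dimmer Tdp1 probeset went the other way, at 6.04, 6.12 and 6.30 in deficient LN and 6.00, 5.83 and 5.99 in wildtype LN cells, a difference of 0.21 (limma adjusted p = 0.967). The mean of both probesets differed by 0.02.

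Fancm, the translocase that brings the Fanconi core complex to DNA, stood at 8.11, 7.84 and 8.02 in deficient LN and at 8.16, 8.14 and 8.04 in wildtype LN cells, a difference of -0.12 (95% interval -0.31 to 0.06). Xpc, which finds distorted DNA in nucleotide excision repair, stood at 8.66, 8.76 and 8.95 in deficient LN and at 9.04, 8.83 and 8.90 in wildtype LN cells, a difference of -0.13 (95% interval -0.33 to 0.07). In both genes 2 deficient LN arrays lay below every wildtype LN array and 1 lay among them. Ogg1 stood at 7.55, 7.64 and 7.65 in deficient LN and at 7.57, 7.35 and 7.58 in wildtype LN cells, a difference of 0.11 (95% interval -0.07 to 0.30). Polb, the gap-filling polymerase of base excision repair, stood at 9.54, 9.44 and 9.29 in deficient LN and at 9.43, 9.62 and 9.54 in wildtype LN cells, a difference of -0.11 (95% interval -0.30 to 0.08). The genotypes overlapped for both, and the limma adjusted p was 0.9995 for each of Fancm, Xpc, Ogg1 and Polb.

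Chek1 and Atm, called in both wildtype T comparisons, differed by 0.01 and -0.01 between deficient and wildtype LN cells, Mdm2 by 0.002 and Brca1 by -0.09. Single arrays moved many members at once. Deficient LN array 2 was the lowest of its group for 22 of the 41 members (53.7%, beside 25.8% of all tested genes), and wildtype LN array 1 was the highest of its group for 24 (58.5%, beside 35.8%). The mean level over the members was 8.88 and 8.92 on the wildtype T arrays, 8.83, 8.79 and 8.86 on the deficient LN arrays and 8.90, 8.84 and 8.85 on the wildtype LN arrays. The part of these arrays in the mostly negative genotype differences was not tested.

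Other genes of the damage response and of the cell cycle were read beside the members, first between wildtype T and wildtype LN cells. Of 49 other repair and damage response genes measured, 6 rose and 3 fell, or 18.4%, beside 18.0% of all tested probesets (7.66% higher and 10.4% lower). Hus1, part of the clamp that helps activate Atr, rose by 0.59 (SE 0.09, limma adjusted p = 0.00107). Lig3, which seals single-strand breaks, and Exo1, an exonuclease that trims ends and mispaired strands, rose by 0.48 and 0.44 (adjusted p = 0.00752 and 0.00682, and 0.0577 and 0.0506 without wildtype T array 2). The nuclease Ercc5 fell by 0.57 and the glycosylase Neil3 by 0.54 (limma adjusted p = 0.00297 and 0.00327). Fancl, the ubiquitin ligase of the Fanconi core complex, fell by 0.29 (adjusted p = 0.0328), a call lost without wildtype T array 1 or 2 or wildtype LN array 2 or 3 (adjusted p from 0.0918 to 0.167).

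Among 8 end joining genes 2 rose and 1 fell, or 37.5%, beside 18.0% of all probesets. Xrcc5, which encodes the Ku80 end-binding protein, stood at 8.77 and 8.62 in wildtype T, at 6.93, 6.98 and 7.19 in deficient LN and at 6.92, 6.77 and 6.88 in wildtype LN cells. Its rise of 1.84 over wildtype LN cells (SE 0.10, limma adjusted p = 5.41e-07) was larger than that of any of the 41 members, and the deficient LN arrays lay just above the wildtype LN arrays (a difference of 0.18, limma adjusted p = 0.9995). Lig4 rose by 0.52 and Xrcc4, its partner in ligation, fell by 0.43 (limma adjusted p = 0.0399 and 0.00432). The Lig4 call was lost without wildtype T array 1, deficient LN array 1, 2 or 3 or wildtype LN array 1 or 3 (adjusted p from 0.0504 to 0.365), and the rise was 0.22 without wildtype T array 1 and 0.82 without array 2.

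Of 18 p53 target genes measured 3 rose and 4 fell, or 38.9%, beside 18.0% of all probesets. Perp, an apoptosis and adhesion gene, rose by 0.98 (0.60 without wildtype T array 2), and Btg2 and Sesn1, which restrain growth, fell by 1.04 and 0.51 (limma adjusted p = 0.00498, 0.00024 and 0.000996). The death receptor gene Tnfrsf10b rose by 0.49 and Sesn2 by 0.42, and Pmaip1, which encodes the apoptosis inducer Noxa, fell by 0.44 (limma adjusted p = 0.0104, 0.0291 and 0.0388). Of these calls, that of Tnfrsf10b was lost without wildtype T array 2 (adjusted p = 0.108), that of Sesn2 without wildtype T array 1 or 2 or wildtype LN array 2 (adjusted p from 0.0675 to 0.119), and that of Pmaip1 without wildtype T array 1 or 2, deficient LN array 2 or wildtype LN array 2 or 3 (adjusted p from 0.0521 to 0.184).

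**Figure D3:**
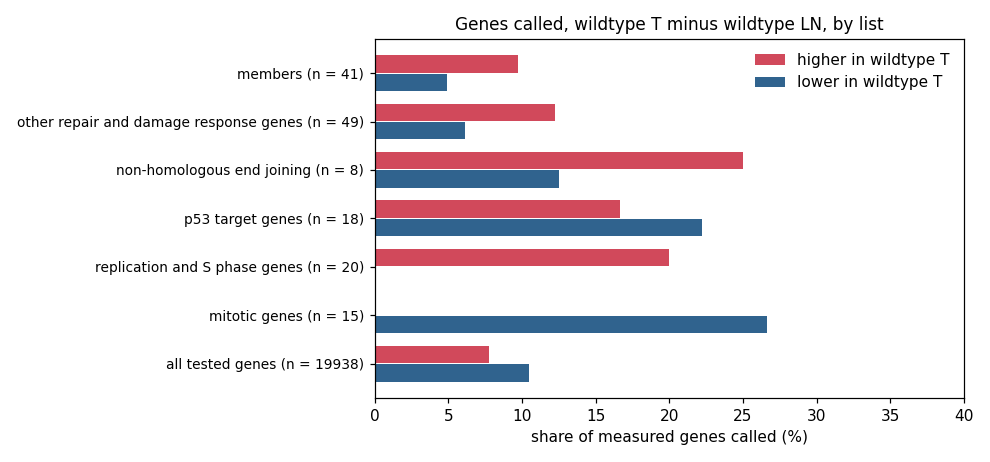
Share of the measured genes of each list, and of all 19938 tested genes, called higher or lower in wildtype T than in wildtype LN cells. The members stand at 4 higher and 2 lower of 41, the replication and S phase genes have calls only on the higher side and the mitotic genes only on the lower side.

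Of 20 replication and S phase genes measured 4 rose and 0 fell (20.0% called, beside 18.0% of all probesets), with a median difference of 0.20. Gins2, part of the replicative helicase, rose by 0.67 (limma adjusted p = 0.000291), and the helicase subunits Mcm3 and Mcm7 by 0.34 and 0.29 (adjusted p = 0.0324 and 0.0421). The Mcm3 call was lost without wildtype T array 1 or 2 or wildtype LN array 2 or 3 (adjusted p from 0.0869 to 0.136), and the Mcm7 call without wildtype T array 2, deficient LN array 2 or 3 or wildtype LN array 1, 2 or 3 (adjusted p from 0.0525 to 0.308), with a rise of 0.18 without wildtype T array 2. Of 15 mitotic genes 0 were called higher and 4 lower (26.7% called, beside 18.0% of all probesets). Their median was -0.10, with 5 positive, 10 negative and a range from -0.40 to 0.43, the highest not called. Nusap1, a spindle protein, fell by 0.40, the proliferation marker Mki67 by 0.30 and the kinetochore motor Cenpe by 0.29 (limma adjusted p = 0.00684, 0.0185 and 0.0319). These calls were lost without wildtype T array 2 for Nusap1 (adjusted p = 0.0658), without wildtype T array 1 or 2 or wildtype LN array 1 or 3 (adjusted p from 0.0512 to 0.0928) for Mki67 and without wildtype T array 1 or 2 or wildtype LN array 1, 2 or 3 (adjusted p from 0.0602 to 0.162) for Cenpe.

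The mean of the replication list was 10.13 and 10.20 on the wildtype T arrays, 9.97, 9.96 and 10.06 on the deficient LN arrays and 10.02, 9.91 and 9.97 on the wildtype LN arrays. The mean of the mitotic list was 10.44 on both wildtype T arrays, 10.45, 10.45 and 10.49 in deficient LN and 10.52, 10.48 and 10.56 in wildtype LN cells. The part of both lists in the members' differences was not tested. Against deficient LN cells, where 5.98% of all probesets were called higher and 8.16% lower, wildtype T cells had 5 of the 49 other repair genes called higher and 2 lower. Of the 8 end joining genes 3 were called higher and 1 lower, of the 18 p53 targets 1 and 5, of the 20 replication genes 1 and 0, and of the 15 mitotic genes 0 and 1. Between deficient and wildtype LN cells no gene of these 5 lists was called. The 1 called probeset of the whole table was that of a T lineage marker, and 0 probesets were called after median centring or after a second quantile normalization.

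**Figure D4:**
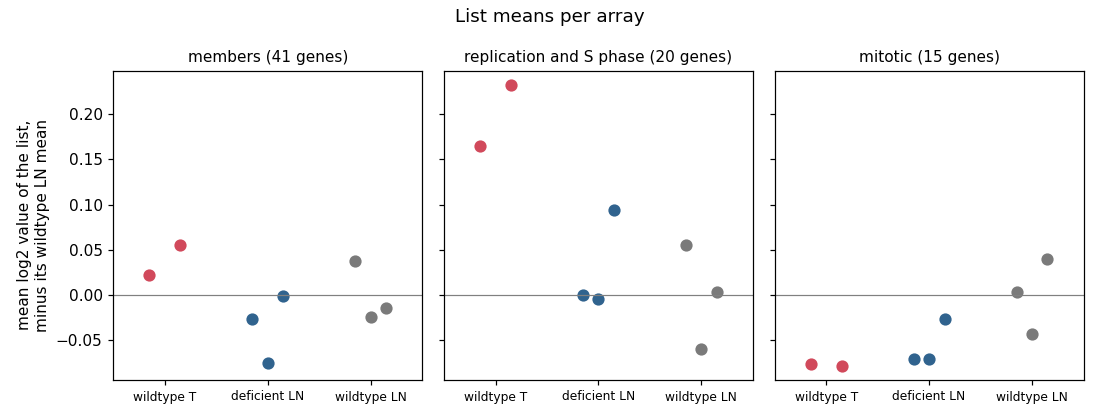
Mean log2 level of the members, of the replication and S phase genes and of the mitotic genes on each array, minus the mean of the wildtype LN arrays. Both wildtype T arrays lie above all LN arrays for the replication list and below all of them for the mitotic list, while the member means overlap between wildtype T and wildtype LN cells and lie higher on both wildtype T arrays than on all deficient LN arrays.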

How the data were processed

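RNA from 8 sorted cultures (10 ng of total RNA per array, amplified and biotin-labelled per the labels' protocols) was measured on microarrays. The authors deposited 1 log2 value per probeset and array, made with RMA in Partek 6.5 per the submitters' processing notes. The log2 scale was read from the values, and array medians lay between 6.85 and 6.91. The sources used here give neither further options nor scan dates nor the array's genome build, and detection above background was not used here. RMA equalises the arrays, so a shift shared by all genes would not show.

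Of 35399 probesets, 11989 without a gene and 1621 with several were left out, and 21789 were tested, 21698 of them with a gene identifier in the reference annotation. Differences came from two-sided limma fits (version 3.58.1, R 4.3.3, default settings) to 3 groups with 5 residual degrees of freedom, with Benjamini-Hochberg adjustment over 21789 probesets. The fit was tested on simulated data. The precision is limited by the number of arrays.

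The members, gene lists, marker lists and alternatives were chosen with earlier results of these data known. Array values are given for called members, for the 6 of smallest p between the LN groups and for Mdm2, Atm and Brca1, with Parp1, Chek2 and Xrcc5 added after their values were seen, and up to 3 genes called in each direction are named per other list. Mre11a was named beyond this rule, after its values were seen, as the partner of Rad50 and Nbn. The cultures of LN cells are of separate mice. For the wildtype T replicates this is not stated, so p-values measure the spread between these arrays, which may in part be technical. Alternatives left out each array, blocked on replicate number, fitted 2 groups alone, dropped the dimmest 40% of probesets, centred or quantile-normalised again, weighted arrays, used a trended robust prior, tested all probesets or averaged a gene's probesets. Promoter windows were read from RefSeq (GRCm38.p6) and searched as letters.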

Additional observations from a re-analysis of the deposited data

How the results depend on the processing

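Between deficient and wildtype LN cells 0 members were called under all 17 alternatives, the replicate block included. The count of 6 between wildtype T and wildtype LN cells ran from 1 to 6 with 1 array left out, and was 2 when all 35399 probesets were tested. It was 9 without the dimmest 40% of probesets and 7 after a second quantile normalization, which also took the members' median difference to 0.129, against 0.059 as reported (the median of all genes then was 0.036). The count of 3 against deficient LN cells ran from 1 to 5 with 1 array left out, and was 6 after that normalization and 5 without the dimmest probesets, where fewer genes were tested. After the second normalization 2233 of all probesets were called higher and 2085 lower than in wildtype LN cells, beside 1670 and 2258 as reported. Against deficient LN cells 1714 were called higher and 1783 lower, beside 1302 and 1779. Calls on the higher side thus rose over the whole table too. For the other alternatives in the wildtype T comparisons the share of all probesets called is not given here. The cause of the changes under the second normalization was not tested. Wrn was called throughout and no called member changed direction. Leaving out 1 wildtype T array leaves a lone one, assumed to vary like the other groups. Deviations of same-numbered arrays from their group means correlated at r from -0.247 to 0.158. Deviations within a group of 2 or 3 arrays constrain one another, so these values cannot tell whether the numbers pair the arrays. With the replicate block 4 members were called in each wildtype T comparison, and against wildtype LN cells Xrcc3, Fanca and Rad51c were not called (limma adjusted p = 0.0672, 0.0586 and 0.0649) while Xpa was (0.0449). Calls of the other lists against wildtype LN cells moved too. Those of Fancl, Lig4, Pmaip1, Mcm3, Mcm7 and Cenpe were lost both with all probesets tested and with the replicate block. The Sesn2 call was lost with all probesets and the Mki67 call with the block. A second quantile normalization lost Fancl and Pmaip1, median centring Mcm7 and Cenpe, and a fit to the 2 groups alone Lig4 and Mcm7.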
